A study of Mus musculus with 3 samples.

Results

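The defensin region of mouse chromosome 8 was taken as all ATRX peaks lying wholly between 16 and 26 Mb, which gave 389 of 105674 peaks in MICAL1-FL neurons and 400 of 112153 peaks in control neurons. The region was picked because peak numbers of the 2 lists had been seen to differ inside it, so its peak numbers are given as a description, with no test. Both groups were day 14 cultures of primary neurons from C57BL6/J embryos of E15.5 to E17.5, which had received lentivirus on day 5. ATRX was mapped by ChIP-seq on enzymatically cut chromatin, with input DNA as background. The MICAL1-FL group carried MICAL1-FL and the control group mCherry, and the sources used here do not name the promoter driving them. With a single ChIP library on each side, no difference has a replicate check. The question is how ATRX occupancy differs when MICAL1-FL is expressed. The MICAL1-FL list names its peaks TBC_M2, so every MICAL1-FL value rests on the sample label. A peak list holds no expression values, so the neuronal identity of the cultures could not be checked.

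ATRX is a chromatin remodeller that, with its partner DAXX, is known to deposit the histone variant H3.3 at telomeres, pericentromeres and tandem repeats. MICAL1 is a flavin monooxygenase that oxidises actin filaments. Defensins are small cationic peptides that kill microbes by damaging their membranes. In mice the alpha-defensins (symbols starting Defa) are made by Paneth cells of the small intestine, and the beta-defensins (Defb) by epithelia, among them those of the airways and the epididymis. Both families grew by tandem duplication, so neighbouring genes are often near copies, and neurons are not a known source of either.

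The region holds 64 annotated defensin genes and pseudogenes, taken by symbols starting Defa or Defb, of which 53 are annotated as protein coding. They lie in 3 clusters. A first beta-defensin cluster, from Defb40 to Defb7, spans 523 kb with 18 genes and pseudogenes, 4 of them alpha-defensin pseudogenes. The alpha-defensin cluster, from Defa21 on, spans 724 kb with 36. A second beta-defensin cluster, from Defb1 to Defb13, spans 172 kb with 9. Between Defb7 and Defa21 lie 1528 kb that hold a single gene with such a symbol, Defb33, near the far end. Genes under other symbols were not counted as defensins.

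Promoter sequences show how the region is built. RefSeq (GRCm38.p6) lists 16 alpha-defensin and 14 beta-defensin promoters of the region, each covering 250 bases before to 50 bases after a gene start. All 16 alpha-defensin promoters hold at least 1 stretch of 32 bases that is repeated among the listed promoters, as do 9 of 14 beta-defensin promoters (64.3%) and 11.5% of all 32851 listed promoters. In the median alpha-defensin promoter every 32-base stretch (100%) is repeated. Of 120 pairs of alpha-defensin promoters, 17 are at least 90% identical, and the median identity is 72.2%, against 47.4% for 91 beta-defensin pairs. The promoters of Defa42 and Defa43 are the same in all 300 bases, and the sequence is shown as the extreme of this likeness, with a TATAAA box in capitals. The motif TATAAA, searched on both strands, is present in 15 of 16 alpha-defensin promoters and 2 of 14 beta-defensin promoters, against 13.6% of all promoters. No peak of either list overlaps any of these 30 promoters, where 9.71% of autosomal promoters were overlapped by a MICAL1-FL peak and 9.58% by a control peak.
Defa42 and Defa43 (chr8:21456468-21456767 and chr8:21594416-21594715, minus strand): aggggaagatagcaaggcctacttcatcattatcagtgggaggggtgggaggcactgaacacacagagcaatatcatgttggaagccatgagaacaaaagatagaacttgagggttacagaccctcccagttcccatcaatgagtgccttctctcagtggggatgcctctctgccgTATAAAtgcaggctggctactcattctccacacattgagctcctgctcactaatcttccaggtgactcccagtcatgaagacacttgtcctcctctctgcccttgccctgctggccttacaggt

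Of 63 promoters listed in the region, 4 were overlapped by a MICAL1-FL peak and 0 by a control peak, beside 9.71% and 9.58% of autosomal promoters. The MICAL1-FL share is thus not above that of the autosomes, and the difference between the lists was not tested. A pair of the 4 promoters follows, with the bases under the peak in capitals. The first belongs to Gm46074, a long non-coding RNA gene between the clusters, and is shown because it is a tandem repeat. Shifted by 156 bases it matches itself at 98.6% of positions, the highest value among 32851 promoters over shifts of 12 to 200 bases (median 35.8%). The MICAL1-FL peak over it (chr8:20649106-20649827) had a depth of 9 fragments over a background of 4.61. The other belongs to Thsd1, which encodes a thrombospondin-domain protein of endothelial cells, beyond the clusters. It is shown as a GC-rich promoter (66.7% G or C) with no repeated 32-base stretch, and its peak (chr8:22227154-22227512) was 7 fragments deep over the lowest background. The other 2 promoters under a MICAL1-FL peak were those of Gm40468 and Gm39147.
Gm46074 (chr8:20649078-20649377, plus strand): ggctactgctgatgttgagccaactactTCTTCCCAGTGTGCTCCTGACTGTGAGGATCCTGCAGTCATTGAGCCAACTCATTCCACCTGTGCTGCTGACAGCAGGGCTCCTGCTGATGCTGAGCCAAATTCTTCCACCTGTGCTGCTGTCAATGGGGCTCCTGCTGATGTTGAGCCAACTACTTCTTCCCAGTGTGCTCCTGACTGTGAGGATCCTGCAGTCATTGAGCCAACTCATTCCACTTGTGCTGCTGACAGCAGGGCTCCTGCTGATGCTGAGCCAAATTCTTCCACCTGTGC
Thsd1 (chr8:22227053-22227352, plus strand): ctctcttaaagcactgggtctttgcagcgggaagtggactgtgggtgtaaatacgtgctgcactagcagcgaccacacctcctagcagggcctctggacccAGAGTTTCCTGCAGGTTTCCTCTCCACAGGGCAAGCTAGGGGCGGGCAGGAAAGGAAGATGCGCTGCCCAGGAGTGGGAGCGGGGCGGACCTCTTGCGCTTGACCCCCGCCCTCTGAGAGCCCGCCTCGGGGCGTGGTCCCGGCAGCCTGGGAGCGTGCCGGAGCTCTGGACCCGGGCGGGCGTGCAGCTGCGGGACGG

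Depth and background of each peak are used throughout. They were read from the authors' fold and p-value, with fold taken as the ratio of depth + 1 to background + 1, which gave whole depths (within 0.05) for 99.97% of peaks in both lists. Depth is the number of ChIP fragments piled up at the summit, and background the number expected there from the input. The labels name 1 input sample, of control neurons, and which input served which list is not stated, so a background belongs to a list and is no measurement of input in MICAL1-FL neurons. The lowest background was 1.62 fragments in both lists. Peaks were shallow. The median was 5 fragments in both lists over the autosomes, and 5 in both over the region. Of the region's peaks, 3 in the MICAL1-FL list and 2 in the control list had a q-value under 0.05. Intervals are 95% and cover counting error only. Those of counts are exact Poisson intervals, those of shares exact Clopper-Pearson intervals, and those of ratios exact conditional binomial intervals.

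Over the whole 10 Mb the lists held nearly equal numbers of peaks, but not at the same places. The ratio of MICAL1-FL to control peaks was 0.973 (0.844 to 1.12), beside 0.947 over all autosomes. In windows of 500 kb, counted by summit, the MICAL1-FL list had more peaks in 7 of 20 windows, fewer in 11 and the same number in 2. The autosomal median was 21 peaks per window in both lists, with quartiles of 15 and 27 for MICAL1-FL and 15 and 29 for control. The 3 places described next stood apart.

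The first was the pair of windows between the clusters. The window from 20 to 20.5 Mb held 34 MICAL1-FL and 11 control peaks, a ratio of 3.09 (1.53 to 6.76). The window from 20.5 to 21 Mb, which holds Defb33, had 24 and 5 peaks, a ratio of 4.8 (1.8 to 16.1). Both MICAL1-FL counts lie above the autosomal median of 21, and that of 34 also lies above the upper quartile of 27. Both control counts lie below the lower quartile of 15.

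The second was the window from 17.5 to 18 Mb, with 32 MICAL1-FL and 11 control peaks (ratio 2.91, 1.43 to 6.40). It lies before the clusters, and the only coding gene that reaches into it is Csmd1. The last went the other way, at 16 to 16.5 Mb inside Csmd1, with 22 MICAL1-FL and 45 control peaks (ratio 0.489, 0.280 to 0.831).

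Relative to the autosomal ratio, 3 of the 19 windows with at least 10 peaks were at least 2 times higher in the MICAL1-FL list (5.07, 3.26 and 3.07 times), ranks 4, 9 and 12 of 4699 autosomal windows. The background share of such windows was 2.55%, and the region was chosen on this contrast, so nothing is read from the count. None of the 19 was at or below 0.5 times, where the background share was 2.47%. Just outside the region, the window before it held 31 MICAL1-FL and 30 control peaks, and the window after it 32 and 11.

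**Figure D1:**
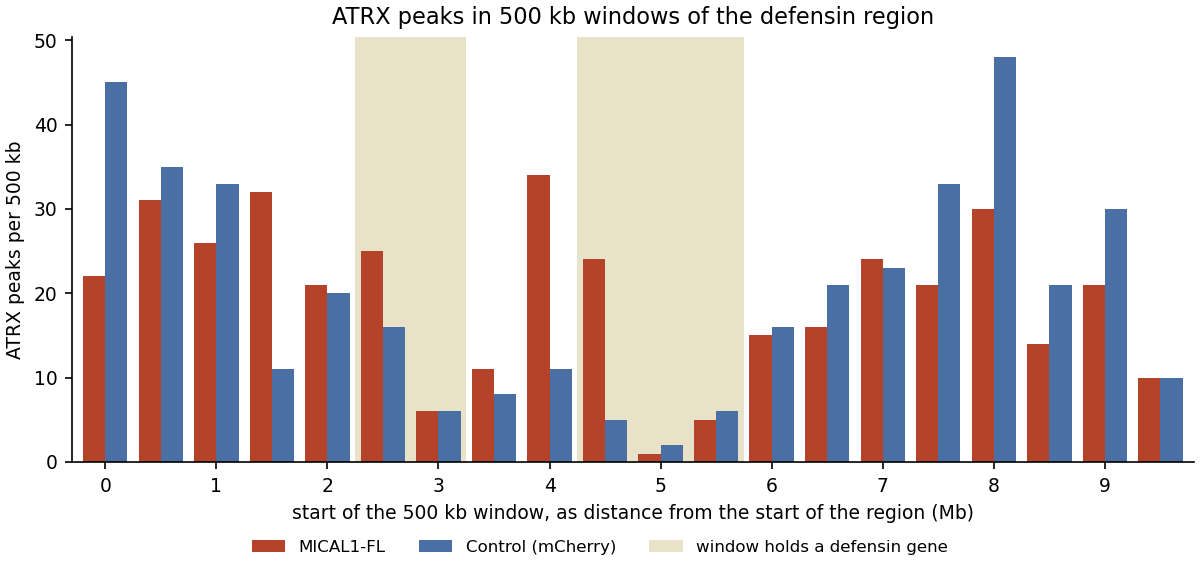
ATRX peaks per 500 kb window by summit (y axis) along the region (x axis, distance from its start in Mb), MICAL1-FL in red and control in blue, with windows that hold a defensin gene shaded. The windows starting at 4 and 4.5 Mb show 34 and 24 MICAL1-FL peaks beside 11 and 5 control peaks, and the shaded window starting at 5 Mb shows 1 and 2.

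Windows with a defensin gene did not carry the difference as a group. The 5 such windows held 61 MICAL1-FL and 35 control peaks (ratio 1.74, 1.13 to 2.72), and the 15 windows with none held 328 and 365 (0.899, 0.772 to 1.05). The window of Defb33 alone accounts for 24 and 5 of these peaks. Without it, 37 and 30 peaks remained (1.23, 0.741 to 2.07). No peak of either list lies within 5 kb of Defb33.

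Divided at the clusters, a division made after the values were seen, the difference lay in the stretch between Defb7 and Defa21. It held 69 MICAL1-FL peaks (53.7 to 87.3) and 24 control peaks (15.4 to 35.7), a ratio of 2.88 (1.78 to 4.78), all of them before Defb33. Per Mb this was 45.2 (35.1 to 57.2) in MICAL1-FL neurons and 15.7 (10.1 to 23.4) in control neurons. Without this stretch the region held 320 and 376 peaks, a ratio of 0.851 (0.731 to 0.991).

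The alpha-defensin cluster and the first beta-defensin cluster held fewer peaks per Mb than the whole region (38.9 and 40) in both lists. The alpha-defensin cluster had 3 MICAL1-FL and 2 control peaks, or 4.14 (0.854 to 12.1) and 2.76 (0.334 to 9.97) per Mb. The first beta-defensin cluster had 7 and 8 peaks, or 13.4 (5.38 to 27.6) and 15.3 (6.61 to 30.1) per Mb. The second beta-defensin cluster had 3 and 6 peaks, or 17.4 (3.6 to 51.0) and 34.9 (12.8 to 75.9) per Mb, intervals that include the values of the whole region. For the flanks, the stretch before the first defensin gene had 52.4 and 53.1 peaks per Mb, and the stretch after the last had 37.3 and 49.9. Beyond the clusters the MICAL1-FL list was the lower one, with 151 and 202 peaks (ratio 0.748, 0.601 to 0.928).

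**Figure D2:**
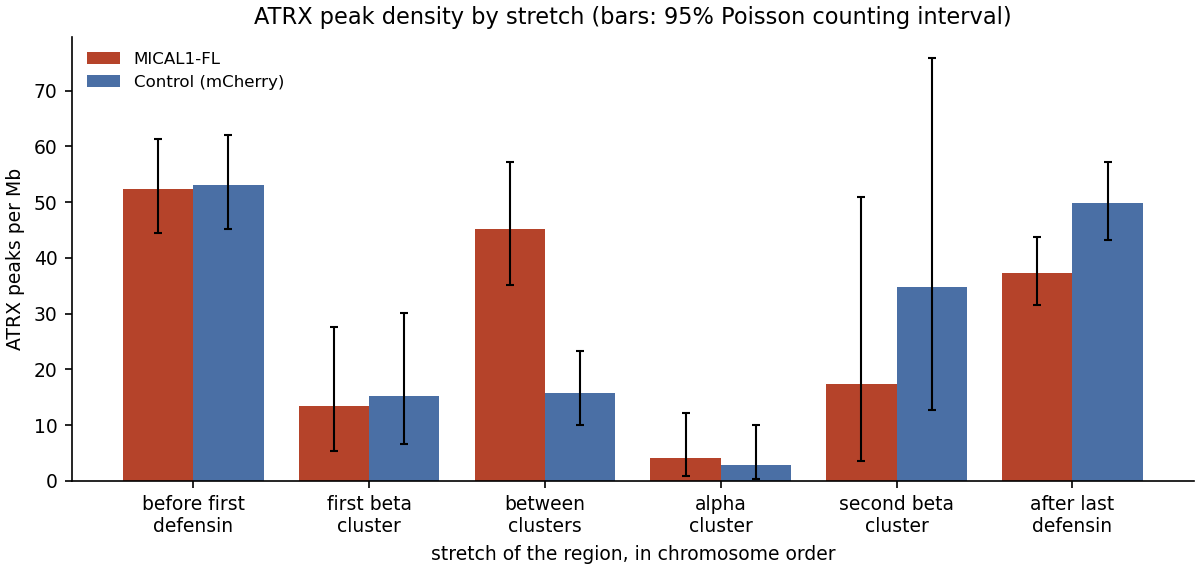
ATRX peaks per Mb (y axis) in 6 stretches of the region in chromosome order (x axis), MICAL1-FL in red and control in blue, with 95% Poisson counting intervals. MICAL1-FL and control stand at 45.2 and 15.7 per Mb between the clusters, and at 4.14 and 2.76 in the alpha cluster, the lowest of the 6.

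Long stretches had no peak at all. In the MICAL1-FL list the longest between the first and last defensin gene was 536 kb, from 21135593 to 21671465, with 25 defensin genes and pseudogenes inside. For the control list it was 571 kb, from 20691089 to 21262004, with 12 inside. Whether reads could be placed in these stretches was not tested.

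Few defensin genes had a peak over the gene or up to 5 kb away. Of the 64, 7 had a MICAL1-FL peak (10.9%, 4.51 to 21.2), 6 a control peak (9.38%, 3.52 to 19.3), 2 had one in both lists and 53 in neither. Among autosomal protein-coding genes of at most 5 kb, the class nearest in length, the shares were 34.6% and 38.2%. Among autosomal protein-coding genes of any length they were 63.7% and 66.4%. Taken once per peak, 7 MICAL1-FL and 5 control peaks lay at defensin genes, 9.04 (3.64 to 18.6) and 6.46 (2.1 to 15.1) per Mb, beside 40.2 and 45.3 per Mb at short coding genes. Peak numbers at the defensin genes therefore sit below those of short genes in each list, and their ratio of 1.4 has an interval, 0.382 to 5.59, that spans the autosomal ratio. With 10 kb on both sides the order turned, at 11 and 12 peaks (ratio 0.917).

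Of 40 alpha-defensin genes and pseudogenes, 2 had a MICAL1-FL peak and 0 a control peak, where 0 of 40 allows a share of up to 8.81%. Defa30 was overlapped by a MICAL1-FL peak from 21135269 to 21135592, 6 fragments deep with a fold of 2.68. The peak beside Defa34 (21671466 to 21671714) was 5 fragments deep. Both genes encode alpha-defensin peptides, and neither gene has a control peak within 5 kb.

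Of 24 beta-defensin genes, 5 had a MICAL1-FL peak (20.8%, 7.13 to 42.2) and 6 a control peak (25%, 9.77 to 46.7). These intervals include the shares of short coding genes, whereas that of the alpha-defensins (5%, 0.611 to 16.9 for MICAL1-FL) lies below them. Defb1, the epithelial beta-defensin made without stimulation, had 2 MICAL1-FL peaks and 1 control peak, which did not overlap. The MICAL1-FL peak over the gene (21776301 to 21776741) was 5 fragments deep. At Defb37 there was 1 peak in each list, of 6 and 4 fragments, again without overlap.

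In the MICAL1-FL list alone, 1 peak lay beside Defb39 and 1 between Defb46 and Defb5, which share it. In the control list alone, Defb10 was overlapped by a peak of 871 bp (21861149 to 21862019) 7 fragments deep, Defb9 had a peak of 5 fragments beside it, and Defb35 and Defb13 shared 1 of 7 fragments. Peaks in the 3 clusters were 4 to 6 fragments deep in the MICAL1-FL list and 4 to 7 in the control list. None was in both lists. Of other autosomal peaks only 7.24% (MICAL1-FL) and 6.86% (control) were shared, so nothing is read from this. Such shallow peaks in a single list leave a difference at the gene not detectable at this depth.

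The peaks between the clusters were of another kind than those of the clusters and flanks, with a raised background in both lists. The background was at least 2 fragments for 62 of 69 MICAL1-FL peaks (89.9%) and 22 of 24 control peaks (91.7%), where 9.51% and 13.1% of autosomal peaks have this. The median background was 3.84 (1.62 to 8.45) in the MICAL1-FL list and 5.25 (1.62 to 15.7) in the control list, and the median depth was 10 (5 to 29) and 12 (5 to 30) fragments, with lowest and highest values in brackets. The more numerous MICAL1-FL peaks were thus not deeper, but stood over a lower median background. By window this held from 20 to 20.5 Mb, with medians of 3.83 and 5.55, but not from 20.5 to 21 Mb, with 4.27 and 4.16. Peaks of at least 10 fragments numbered 35 and 18. The median fold was 2.17 and 2.09.

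**Figure D3:**
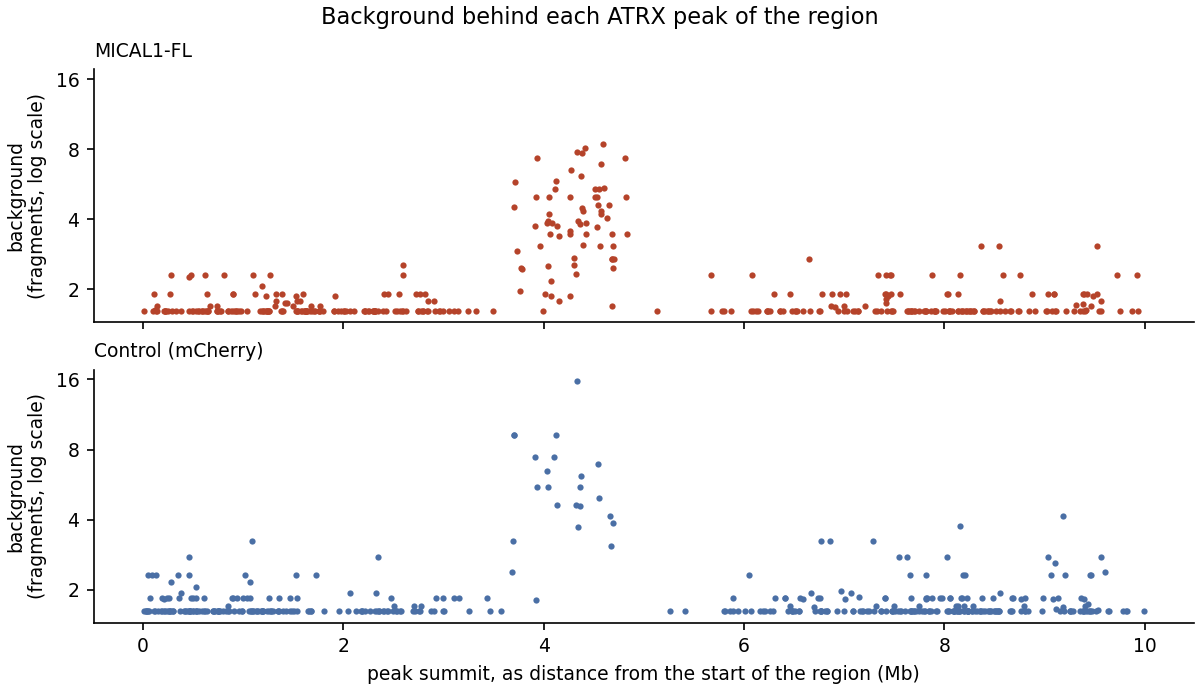
Background behind each peak of the region (y axis, fragments, log scale) against summit position (x axis, distance from the start of the region in Mb), MICAL1-FL above and control below. Peaks near 4 to 5 Mb stand over backgrounds of up to 8.45 and 15.7 fragments, while most others sit at the lowest background of 1.62.

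Of the region's peaks with a -log10 p of at least 3, 18 of 50 in the MICAL1-FL list and 7 of 54 in the control list lay in this stretch. The 3 strongest MICAL1-FL peaks by p-value lay there, and these alone had a q-value under 0.05 in that list. The first (20331090 to 20331434) was 29 fragments deep over a background of 7.81, with a fold of 3.41 and a -log10 p of 8.92, and had no control peak over it. The next (19706749 to 19707974) overlapped 4930467E23Rik, and the one after it (19912250 to 19912699) overlapped 9530057J20Rik, both coding genes known by clone names. In the control list the strongest peak of the region was elsewhere, inside Csmd1 (16844623 to 16845108, 10 fragments over the lowest background, fold 4.2). The second (20122385 to 20122992) was between the clusters, 26 fragments deep over a background of 9.25. The next 3 control peaks lay beyond the clusters, each 9 fragments deep, the first of them in Zmat4 (23701145 to 23701578) and the last in Vdac3 (22590024 to 22590406), a mitochondrial channel gene.

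Places with a peak in both lists show the backgrounds side by side. The stretch has 3 such pairs. Near 20037756 the depth was 10 fragments in both libraries, over a background of 2.52 in the MICAL1-FL list and 5.55 in the control list. Near 19706749 it was 18 and 15 fragments, over 4.51 and 9.25. The last pair, near 20122306, had 17 and 26 fragments over 5.83 and 9.25. In all 3 pairs the MICAL1-FL background was the lower one.

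Across the autosomes the same lean was present at high background. At 113 pairs with summits within 250 bp and backgrounds of at least 3 in both lists, the median ratio of MICAL1-FL to control was 0.721 for background and 0.857 for depth. At 1761 pairs over the lowest background both ratios were near 1 (0.997 and 1). Backgrounds above the lowest were best described by steps of 0.384 fragments in the MICAL1-FL list and 0.4625 in the control list. When MICAL1-FL backgrounds above the lowest were multiplied by the ratio of these steps, 1.20, and peaks with p under 0.05 kept, 59 MICAL1-FL peaks remained between the clusters beside 24 control peaks (ratio 2.46, 1.51 to 4.13). The rescaling can only remove MICAL1-FL peaks, and its factor comes from the steps, not from the matched pairs. It therefore does not measure the part of the lower background in the peak numbers. That part was not tested, nor was copy number in the animals or the assembly.

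Peaks elsewhere on the autosomes were also counted by background, each by that of its own list. MICAL1-FL backgrounds were lower at matched places of high background, so the same place can fall in different classes in the 2 lists. The counts are therefore a description only. With backgrounds of 2 to 3 fragments there were 8676 MICAL1-FL and 12801 control peaks outside the stretch (ratio 0.678, 0.659 to 0.697), against 12 and 1 inside. With backgrounds of 3 to 4 fragments there were 943 MICAL1-FL and 1291 control peaks outside the stretch (ratio 0.730, 0.671 to 0.795), against 20 and 4 inside. From 4 to 6 fragments there were 102 and 130 outside (0.785, 0.599 to 1.02), against 21 and 8 inside. From 6 to 10 fragments there were 50 and 43 outside (1.16, 0.758 to 1.79), against 9 and 8 inside. Whole windows of high background mostly leaned towards the MICAL1-FL list. Of 11 other autosomal windows with at least 10 peaks and a median background of at least 2 fragments, 10 had a ratio above the autosomal one and 5 were at least 2 times higher. The shares were 62.2% and 13.3% of 45 windows from 1.8 fragments on, and 50.5% and 2.39% of 4635 windows under 1.8. Together the 11 windows held 317 MICAL1-FL and 252 control peaks (ratio 1.26, 1.06 to 1.49), and with windows from 1.8 fragments on, 1043 and 1007 (1.04, 0.949 to 1.13). The window from 59.5 Mb of chromosome 7 had 16 and 2 peaks, and that from 92 Mb of chromosome 3 had 34 and 10. The window of highest background (14.3 fragments), from 47.5 Mb of chromosome 6, went the other way, with 26 and 59. These were chosen after their values were seen.

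**Figure D4:**
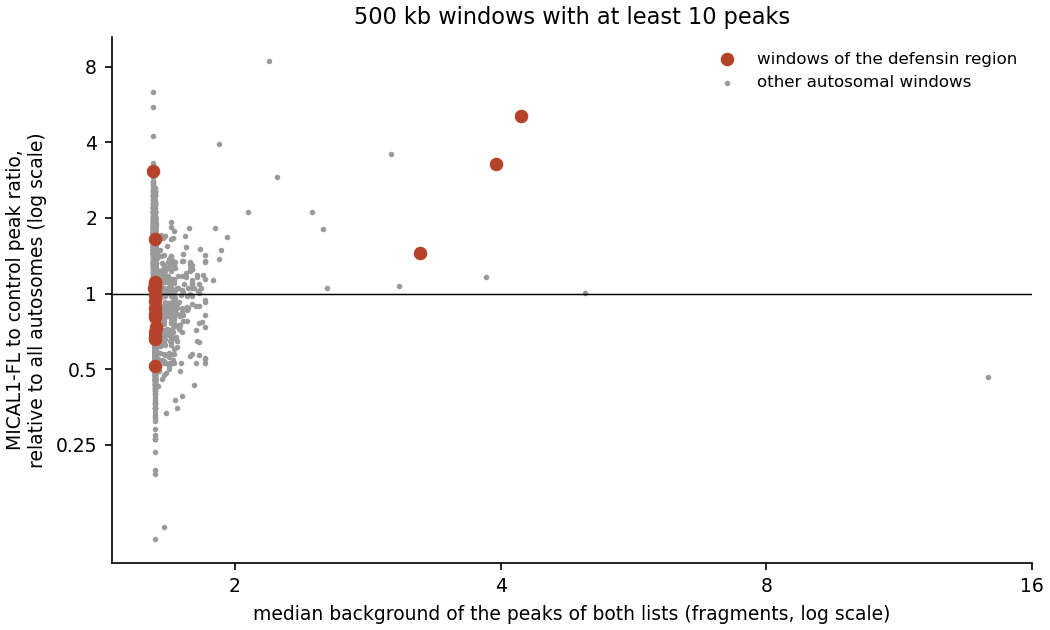
MICAL1-FL to control peak ratio relative to all autosomes (y axis, log scale) against the median background of the peaks of both lists (x axis, fragments, log scale), for 500 kb autosomal windows with at least 10 peaks and at least 1 in each list. The windows of the region at 3.95 and 4.22 fragments stand at 3.26 and 5.07 times, and the other high window of the region, at 3.07 times, sits over the lowest background.

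The window from 17.5 to 18 Mb differed from the stretch in this respect. Its peaks stood mostly over the lowest background (25 of 32 MICAL1-FL and 8 of 11 control peaks), with depths of 4 to 8 and 5 to 8 fragments. Within the stretch, the window from 19.5 to 20 Mb had median backgrounds of 3.07 and 4.39 and held 11 and 8 peaks (ratio 1.38, 0.504 to 3.94). The part of background in these numbers was not tested.

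Sharing between the lists was low. Of the region's peaks, 20 of 389 MICAL1-FL peaks (5.14%, 3.17 to 7.83) and 21 of 400 control peaks (5.25%, 3.28 to 7.91) met a peak from the opposite library by at least 1 bp, beside 7.24% and 6.86% of other autosomal peaks. Between the clusters it was 3 of 69 (4.35%, 0.906 to 12.2) and 3 of 24 (12.5%, 2.66 to 32.4). Elsewhere on the autosomes, peaks with backgrounds of at least 3 overlapped more often, at 22.4% (20.1 to 24.9) and 21.6% (19.6 to 23.7). The MICAL1-FL interval of the stretch lies below that share, and the control interval includes it. Nothing is read from this, since only 24 control peaks lie there for the 69 MICAL1-FL peaks to meet. The stretch also includes peaks with backgrounds under 3. No overlap was found in any window with a defensin gene.

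Genes between the clusters are mostly pseudogenes and unnamed models, picked here after their values were seen. The pseudogene Gm20778 had 8 MICAL1-FL and 2 control peaks within 5 kb, and the transcribed pseudogene 2610005L07Rik had 6 and 0. The pseudogenes Gm7760 (2 and 2) and Gm6483 (0 and 2) did not lean this way. Coding genes between the clusters had few. Gm15319 had 2 and 3 peaks, 9530057J20Rik had 3 and 3, 4930467E23Rik had 3 and 2, Gm40469 had 2 and 2, and Gm21119 had 2 and 0.

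Of the region's 71 other coding genes, 48 had a MICAL1-FL and 52 a control peak within the gene and 5 kb, which is 67.6% and 73.2%, beside 63.7% and 66.4% of all autosomal coding genes. The most peaks lay in Csmd1, a long gene for a transmembrane complement regulator of the brain. Its part inside the region had 84 MICAL1-FL and 117 control peaks (ratio 0.718, 0.536 to 0.958). The interval of Csmd1 excludes 1 but includes the autosomal ratio of 0.947. Zmat4, a zinc finger gene, had 24 and 32 peaks, and C030002A05Rik had 7 and 8.

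Higher in the MICAL1-FL list were Mcph1 (microcephalin, a regulator of chromosome condensation and brain size), with 11 and 6 peaks, and Sfrp1, a secreted Wnt antagonist, with 8 and 2. Thsd1 had 4 and 1 peaks, the potassium channel gene Kcnu1 3 and 0, and the metalloprotease-family gene Adam32 3 and 1. The interval of each of these ratios includes 1, as with Mcph1 (0.621 to 6.04) and Sfrp1 (0.798 to 38.7).

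Lower in the MICAL1-FL list was Tacc1, a centrosome protein gene, with 1 and 8 peaks (ratio 0.125, 0.00282 to 0.932). Plat, the tissue plasminogen activator gene, had 2 and 6, Adam5 had 3 and 6, and the phosphate transporter gene Slc20a2 had 4 and 7. Ank1, for the membrane anchor ankyrin, with 8 and 6 peaks, and Plekha2, with 5 and 4, were not lower and are named for their peak numbers. Of these, Tacc1 alone had an interval that excludes 1, and it was named for its difference.

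**Figure D5:**
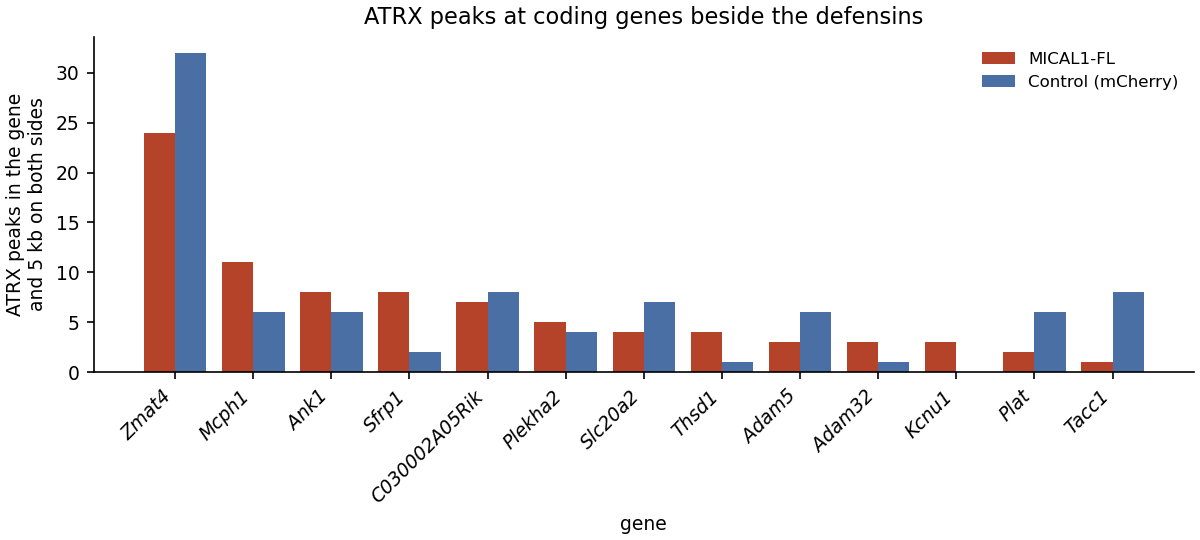
ATRX peaks in each gene with a 5 kb flank (y axis) at 13 coding genes of the region that are not defensins (x axis), MICAL1-FL in red and control in blue. Csmd1, with 84 and 117 peaks, is left out for scale, and Tacc1 shows 1 and 8 peaks.

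Defensin genes on other chromosomes give the nearest comparison. The 19 beta-defensin genes and pseudogenes of chromosomes 1, 2 and 14 had a MICAL1-FL peak at 2 (10.5%, 1.3 to 33.1) and a control peak at 6 (31.6%, 12.6 to 56.6), beside 34.6% and 38.2% of short coding genes, with 2 and 8 peaks in all, or 7.57 (0.916 to 27.3) and 30.3 (13.1 to 59.6) per Mb. Defb36 had 1 and 2 peaks, Defb43 had 1 and 1, and Defb48 had 0 and 2. The ratio was 0.25 (0.0259 to 1.25). It moved to 1 with no flank (2 and 2 peaks) and to 0.5 with 10 kb (5 and 10 peaks), and its interval overlaps that of the region's defensin genes.

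Genes that act beside defensins in the gut and in innate defence carried peaks in both lists. Of 30 such genes, 15 had a MICAL1-FL and 14 a control peak within 5 kb, beside 63.7% and 66.4% of autosomal coding genes. The 30 genes had a median length of 6.39 kb, against 17.5 kb for autosomal coding genes. Among autosomal coding genes of at most 5 kb the shares were 34.6% and 38.2%. Peaks at the 30 genes numbered 58 and 69, of which Tcf4 held 37 and 45, and the rest 21 and 24. Tcf4 encodes a basic helix-loop-helix factor, not the Wnt effector of Paneth cells that was once called TCF4 and is now Tcf7l2. Nod2, the sensor of bacterial wall fragments in Paneth cells, had 4 and 3 peaks. Lyz1, the Paneth cell lysozyme, had 2 and 0, Itln1, an intelectin that binds microbial sugars, 0 and 3, and Mmp7, which cuts alpha-defensin precursors in mice, 1 and 0. The Reg3 lectin genes Reg3a, Reg3b and Reg3g and the angiogenin gene Ang4 had 0 in both. Of the neutrophil genes, Lcn2, S100a8 and Ltf had 0 in both, S100a9, Mpo and Camp 0 and 1, and Elane 1 and 0.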

How the data were processed

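The 2 ATRX ChIP-seq peak lists were used, 1 per condition, with groups from the sample titles. The labels also name an input sample of control neurons, not analysed here. The submitters' processing notes list MACS 1.4.2, Bowtie 1.3.0, ChIPseeker 1.26.2 and SAMtools 1.9, without roles. The sources used here name neither threshold nor build. The score, as deposited, is the whole part of 10 times the -log10 p of the authors' peak caller. The fold ratio over background, the -log10 p and -log10 q, and the summit offset are the authors' own, and describe peaks within a list.

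Genes and promoters came from RefSeq GRCm38.p6. The build was settled from the data, since 9.71% of promoters overlapped a MICAL1-FL peak and 2.63% did when shifted by 10 kb (control 9.58% and 3.04%). Peak coordinates are 1-based. Depth and background were solved from fold and p. On 4990 peaks simulated with the same formulas for fold and p, 100% were recovered. This checks the solving alone, not whether the authors' peak caller used these formulas. Python 3.11.15, scipy 1.17.1 and Biopython 1.88 were used. Promoter identity is from global alignment.

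No test between conditions was made, as each has a single library. The members and gene lists were chosen with earlier results of these data known. Named genes were defensin genes with a peak within 5 kb, the 10 other coding genes with the most peaks and the 5 most different each way. Named peaks were the strongest in the region and in the defensin windows, of which examples are given. Alternatives changed the p-value limit, peak merging, background, window, flank and overlap.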

Additional observations from a re-analysis of the deposited data

How the results depend on the processing

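Of 49 alternative values, 37 stayed within the counting interval of the reported value, or within 1.5 times of a reported count, and 12 did not. The ratio between the clusters stayed between 2.46 and 3.71 under every alternative except peaks at the lowest background alone, where 1 MICAL1-FL and 1 control peak were left (ratio 1), since nearly all peaks there lie above it. The value of 2.46 came from the rescaled backgrounds, which do not measure the part of the lower MICAL1-FL background. Among the strongest 10000 peaks of each list the stretch had 10 and 4 peaks, and the interval of its ratio included 1 (2.5, 0.721 to 10.9). The ratio over windows with a defensin gene moved to 2.80 at a -log10 p of at least 3, and was 1.23 without the window of Defb33. Its interval included 1 under both, among the strongest 10000 peaks (1.5, 0.356 to 7.23), and with windows of 250 kb (1.27, 0.702 to 2.33), windows shifted by 250 kb (1.18, 0.724 to 1.94) and the lowest background alone (1.29, 0.700 to 2.39). The ratio over the whole region ranged from 0.851 to 1.01. The share of the region's peaks in both lists rose to 15.4% of MICAL1-FL and 16.8% of control peaks for peaks up to 1 kb apart. It fell to 2.57% and 2.50% for summits within 250 bp, and to 2.57% of MICAL1-FL peaks for an overlap of 50%. Autosomal windows past the limit numbered 540 higher and 481 lower at a fold of 1.5, and 14 and 20 with windows of 1 Mb. Windows with backgrounds of at least 1.8 fragments gave 1.04. No paired analysis was possible because each condition has 1 library. Depth limits single peaks, which are mostly 5 fragments deep.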
